A study of Mus musculus with 71 samples.

Results

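The endogenous opioid genes examined here are 3 peptide precursor genes, Penk, Pdyn and Pnoc, and 4 receptor genes, Oprm1, Oprd1, Oprk1 and Oprl1. They were chosen by name, and are 7 of the 55416 gene identifiers counted in all 71 libraries of mouse brain. Penk encodes preproenkephalin, the source of the enkephalins, which act mainly at the delta receptor (Oprd1) and the mu receptor (Oprm1). Pdyn encodes prodynorphin, the source of the dynorphins, which act mainly at the kappa receptor (Oprk1). Pnoc encodes the precursor of nociceptin, the ligand of the nociceptin receptor (Oprl1), a receptor of the same family that binds classical opioids poorly. All of these receptors couple to inhibitory G proteins, which lower cyclic AMP, open potassium channels and close presynaptic calcium channels. In the forebrain, enkephalin and dynorphin are best known as the peptides of the projection neurons of the striatum.

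Hippocampus, piriform cortex and frontal cortex of C57BL/6J mice were profiled by bulk RNA sequencing, single-end at 100 bp, in burned, excised and sham-treated animals. Burns were made on the right dorsal flank with a brass rod 19 mm across, at over 90 °C and for 10 s, and reached 7 to 8% of body surface. For excision, skin was cut out at full thickness inside a 12 mm template on the back. Sham mice were only shaved. All groups were anaesthetised with isoflurane, and all received the opioid buprenorphine, a partial agonist at the mu receptor, at 0.1 mg/kg, so every value below is from animals given an opioid. Paracetamol at 1 mg/mL was in the drinking water for 5 days after the procedure. The hippocampus gave 10 burn, 10 excision and 9 sham libraries, the piriform cortex 5 burn, 4 excision and 5 sham libraries, and the frontal cortex 10 burn, 10 excision and 8 sham libraries. Hippocampus and frontal cortex were each run as batches 1 and 2, while the piriform cortex was a single batch of its own, so that its region and its batch cannot be told apart. The age of the mice, the time of collection and the animal behind each library are missing from those labels that were used here, so p-values measure the spread between these libraries.

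Total counts ran from 6.65 to 87.8 M per library, with a median of 57 M, and the 4 libraries under 10 M were all from hippocampus batch 1. Markers of dentate granule cells were checked against the labelled regions: their 12 genes summed to 341 to 678 CPM (counts scaled to a common library total) in hippocampus and to 239 to 403 CPM in frontal cortex. The piriform libraries lay at 251 to 365 CPM, except the library labelled piriform cortex sham replicate 1, at 563 CPM. That library also had the highest piriform sum of the CA field markers (1050 CPM) and of the choroid plexus markers (219 CPM), and the lowest piriform sum of the cortical layer markers (652 CPM). The treatment field set the group of each library, although 4 titles name another treatment. These 4 are frontal cortex burn replicates 7 and 8, titled sham, frontal cortex excision replicate 7, titled burn, and piriform cortex sham replicate 2, titled excision. For the frontal cortex libraries among these 4, the numbers in the library names go with the treatment field. In batch 2, numbers 2 and 3 were burn and 6 was excision in hippocampus, as the field gives for frontal cortex. For the piriform library, which is of batch 3, the hippocampus numbers do not decide. Number 6 was sham in hippocampus batch 1, as its treatment field gives, but excision in hippocampus batch 2, as its title gives. The labels do not say that equal numbers are the same animal. Titles of the piriform libraries also name the frontal cortex, and their tissue field was used.

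On the mouse build GRCm38, Penk spans chr4:4133531-4138819, Pdyn chr2:129686565-129699844 and Pnoc chr14:65400673-65425472, each on the minus strand. Among the receptors, Oprm1 spans chr10:6758506-7038198 and Oprk1 chr1:5588466-5606131 on the plus strand, Oprl1 spans chr2:181715016-181720985 on the plus strand, and Oprd1 spans chr4:132110726-132144486 on the minus strand. All are protein-coding. The exons of Oprm1 share 96 of 8037 bases with Ipcef1 on the opposite strand, a gene with 372651 counts in all libraries against 2424 for Oprm1. Penk shares 233 of 1634 exon bases with the antisense transcript A830012C17Rik, which had 91 counts in all against 634098 for Penk. The strand setting of the counting is not given in the sources used here, so reads from such overlaps cannot be told apart.

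Promoter sequence from RefSeq on GRCm38.p6, 250 bases before to 50 bases after a transcription start, was found for Pdyn, Oprm1, Oprd1 and Oprl1. Of these genes, Pdyn varied most among frontal cortex libraries, with a coefficient of variation of 55.9%, and Oprl1 varied least, at 15.6%. Their windows are therefore shown, with that of Oprd1, which held the most CpG pairs. The Pdyn window lies at chr2:129699889-129700188 on the minus strand, with its start 94 bases from the GENCODE start. Those of Oprd1, at chr4:132144437-132144736 on the minus strand, and Oprl1, at chr2:181714766-181715065 on the plus strand, use the same start as GENCODE. Sequences run 5′ to 3′ and capitals mark CpG pairs.
Pdyn: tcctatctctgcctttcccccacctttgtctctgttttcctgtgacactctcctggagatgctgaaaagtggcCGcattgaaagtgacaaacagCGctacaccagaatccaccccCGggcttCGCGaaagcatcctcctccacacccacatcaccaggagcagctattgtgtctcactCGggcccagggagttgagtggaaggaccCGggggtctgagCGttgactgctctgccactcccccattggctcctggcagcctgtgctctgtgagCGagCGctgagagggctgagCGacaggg
Oprd1: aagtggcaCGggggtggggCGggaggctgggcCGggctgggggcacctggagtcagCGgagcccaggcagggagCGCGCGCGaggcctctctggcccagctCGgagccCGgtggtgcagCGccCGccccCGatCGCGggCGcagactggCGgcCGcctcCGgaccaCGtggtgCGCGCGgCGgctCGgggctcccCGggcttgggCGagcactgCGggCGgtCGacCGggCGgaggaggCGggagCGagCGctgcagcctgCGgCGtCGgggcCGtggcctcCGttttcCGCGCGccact
Oprl1: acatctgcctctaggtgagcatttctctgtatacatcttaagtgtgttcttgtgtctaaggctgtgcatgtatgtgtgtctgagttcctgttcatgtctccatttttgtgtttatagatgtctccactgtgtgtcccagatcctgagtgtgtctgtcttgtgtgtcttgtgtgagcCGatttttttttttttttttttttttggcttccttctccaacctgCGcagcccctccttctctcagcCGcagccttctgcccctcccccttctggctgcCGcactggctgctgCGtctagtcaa
The Oprd1 window held 43 CpG pairs at a GC content of 79.3%, and 2.61% of 32841 mouse promoter windows of this length hold at least as many. Pdyn had 11 CpG pairs, a number reached by 41.4% of windows, Oprl1 had 5, reached by 62.0%, and Oprm1 had 3, reached by 76.7%. The GC box GGGCGG, searched on both strands, occurred 4 times in the Oprd1 window and not in the other 3, and 35.7% of all windows hold it. The E box CACGTG, which is its own reverse complement, occurred once in the Oprd1 window and in 7.15% of all windows. Neither TGACG nor its reverse complement was in any of the 4 windows, while 20.8% of all windows hold one of them. These matches describe letters only.

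Levels are given as CPM, scaled by TMM over all 71 libraries, and as CPM per kb of exon where genes are compared with each other. In sham libraries Penk was the most abundant of the 7 genes per exon length in every region, at 22.8 ± 7.28 CPM per kb in hippocampus (SD, n = 9), 94.6 ± 132 CPM per kb in piriform cortex (n = 5) and 174 ± 105 CPM per kb in frontal cortex (n = 8). Oprm1, the mu receptor, was the least abundant, at 0.0315 ± 0.0187, 0.0856 ± 0.0341 and 0.116 ± 0.0493 CPM per kb in the same regions. In hippocampus the order was Penk, Oprl1, Pdyn, Pnoc, Oprd1, Oprk1 and Oprm1. There the ranges of Pdyn (4.41 to 5.78 CPM per kb) and Pnoc (4.44 to 5.84) overlapped, as did those of Oprk1 (0.0517 to 0.212) and Oprm1 (0.0132 to 0.0671), and the other neighbours were apart. In piriform and frontal cortex the order was Penk, Pdyn, Oprl1, Pnoc, Oprd1, Oprk1 and Oprm1. Among neighbours, Pdyn overlapped Oprl1 and Pnoc overlapped Oprd1 in both cortices. Oprd1 also overlapped Oprk1 in piriform cortex, and Oprk1 overlapped Oprm1 in frontal cortex. The receptor for nociceptin was thus the most abundant of the 4 receptor transcripts per length in each region, at 10.5 ± 0.723 CPM per kb in hippocampus, 8.38 ± 1.32 in piriform cortex and 8.42 ± 0.972 in frontal cortex. The nearest other receptor, Oprd1, had 1.43 ± 0.564, 2.84 ± 1.17 and 3.82 ± 0.666 CPM per kb there.

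**Figure D1:**
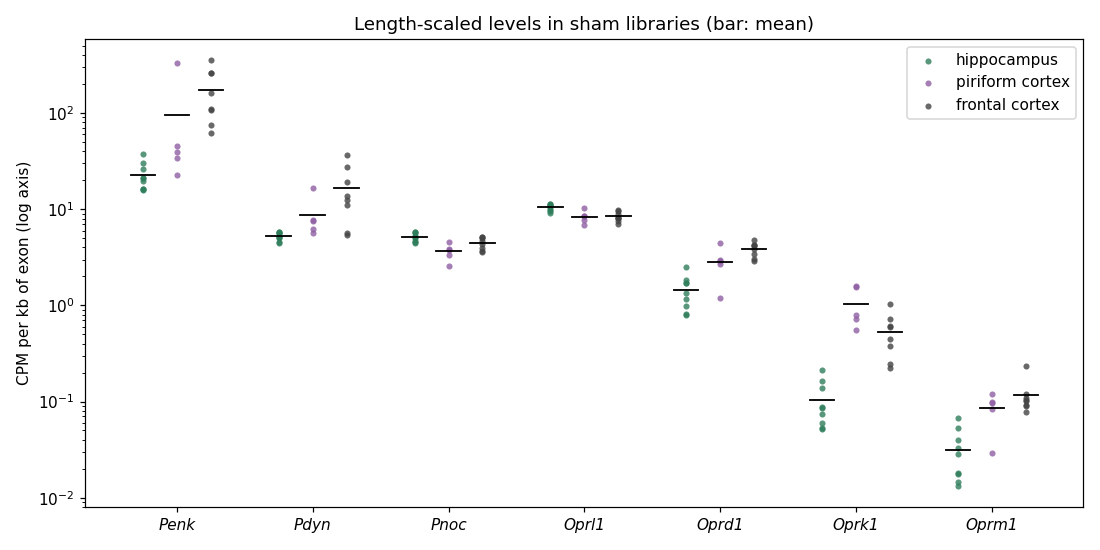
Length-scaled levels (CPM per kb of exon, log axis) of the 7 opioid genes in sham libraries of hippocampus (n = 9), piriform cortex (n = 5) and frontal cortex (n = 8), 1 point per library and a bar at the mean. Penk lies highest in each region, Oprm1 lowest, and Oprk1 and Oprm1 are lowest in hippocampus.

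Between regions, sham hippocampus had less of most opioid transcripts than sham frontal cortex. With edgeR's quasi-likelihood test and Benjamini-Hochberg adjustment over 21149 genes, called under an adjusted p of 0.05, 6 of the 7 genes differed: Penk, Pdyn, Oprm1, Oprd1 and Oprk1 were lower in hippocampus and Oprl1 was higher. In the same fit 37.8% of all genes tested were called, and the median log2 fold change was -1.66 over the 7 genes and 0.00 over all genes.

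Among the peptides, Penk ran from 26.2 to 60.9 CPM, with a median of 34.3, in sham hippocampus, against 102 to 580 CPM, with a median of 223, in sham frontal cortex. These sham groups did not overlap, and the log2 fold change was -2.94 (SE 0.46, adjusted p = 1.31e-05). How many of all genes had sham groups apart was not counted for any pair of regions. Pdyn had 12.7 to 16.7 CPM, median 15.0, in sham hippocampus and 15.6 to 107 CPM, median 37.7, in sham frontal cortex. The ranges overlapped in frontal cortex sham replicates 6 and 8, at 15.6 and 16.2 CPM, and the log2 fold change was -1.66 (SE 0.31, adjusted p = 9.75e-05). Pnoc was nearly level, at 9.58 to 12.6 CPM in sham hippocampus and 7.8 to 11.2 CPM in sham frontal cortex, with a log2 fold change of 0.21 and an interval of 0.00 to 0.42 (95% interval, adjusted p = 0.129 by edgeR).

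Among the receptors, Oprk1 differed most between these regions. It had 0.474 to 1.94 CPM, median 0.785, in sham hippocampus, against 2.06 to 9.54 CPM, median 4.76, in sham frontal cortex, which gave a log2 value of -2.38 (SE 0.35, adjusted p = 4.44e-06). Oprd1 had 3.16 to 10.0 CPM in sham hippocampus and 11.6 to 19.4 CPM in sham frontal cortex, or -1.42 on the log2 scale (SE 0.23, adjusted p = 1.49e-05). Neither of these receptors overlapped between the groups. Oprm1 was also apart, at 0.106 to 0.54 CPM in sham hippocampus and 0.627 to 1.88 CPM in sham frontal cortex, and its fitted log2 ratio was -1.85 (SE 0.33, adjusted p = 8.01e-05). These Oprm1 levels rest on 2 to 19 counts per sham hippocampus library and 31 to 151 counts per sham frontal cortex library. Over all treatments the ranges of Oprk1, Oprd1, Oprm1 and Penk overlapped between these regions. For example, Oprd1 reached 10.2 CPM in hippocampus and fell to 6.28 CPM in frontal cortex. Oprl1 went the other way and by less, at 34.7 to 42.6 CPM in sham hippocampus and 26.6 to 36.7 CPM in sham frontal cortex, with overlapping groups and a log2 difference of 0.31 (SE 0.08, adjusted p = 0.00332).

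The same 5 genes were lower in hippocampus in the other treatments. With burn libraries, where 44.3% of genes were called, the log2 fold changes of hippocampus over frontal cortex were -2.23 for Penk, -1.38 for Pdyn, -1.52 for Oprm1, -1.47 for Oprd1 and -2.31 for Oprk1, and Pnoc was also called, at 0.58 (SE 0.11, adjusted p = 9.5e-05). With excision libraries, where 39% were called, they were -2.84, -1.69, -1.53, -1.20 and -2.45. All 10 of these values passed an adjusted p of 0.05 by edgeR. The higher Oprl1 of hippocampus was not called there, at 0.22 with burn libraries (adjusted p = 0.0554) and 0.13 with excision libraries (adjusted p = 0.174). It was also lost among sham libraries when treatments were taken from titles, at 0.22 (adjusted p = 0.087).

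**Figure D2:**
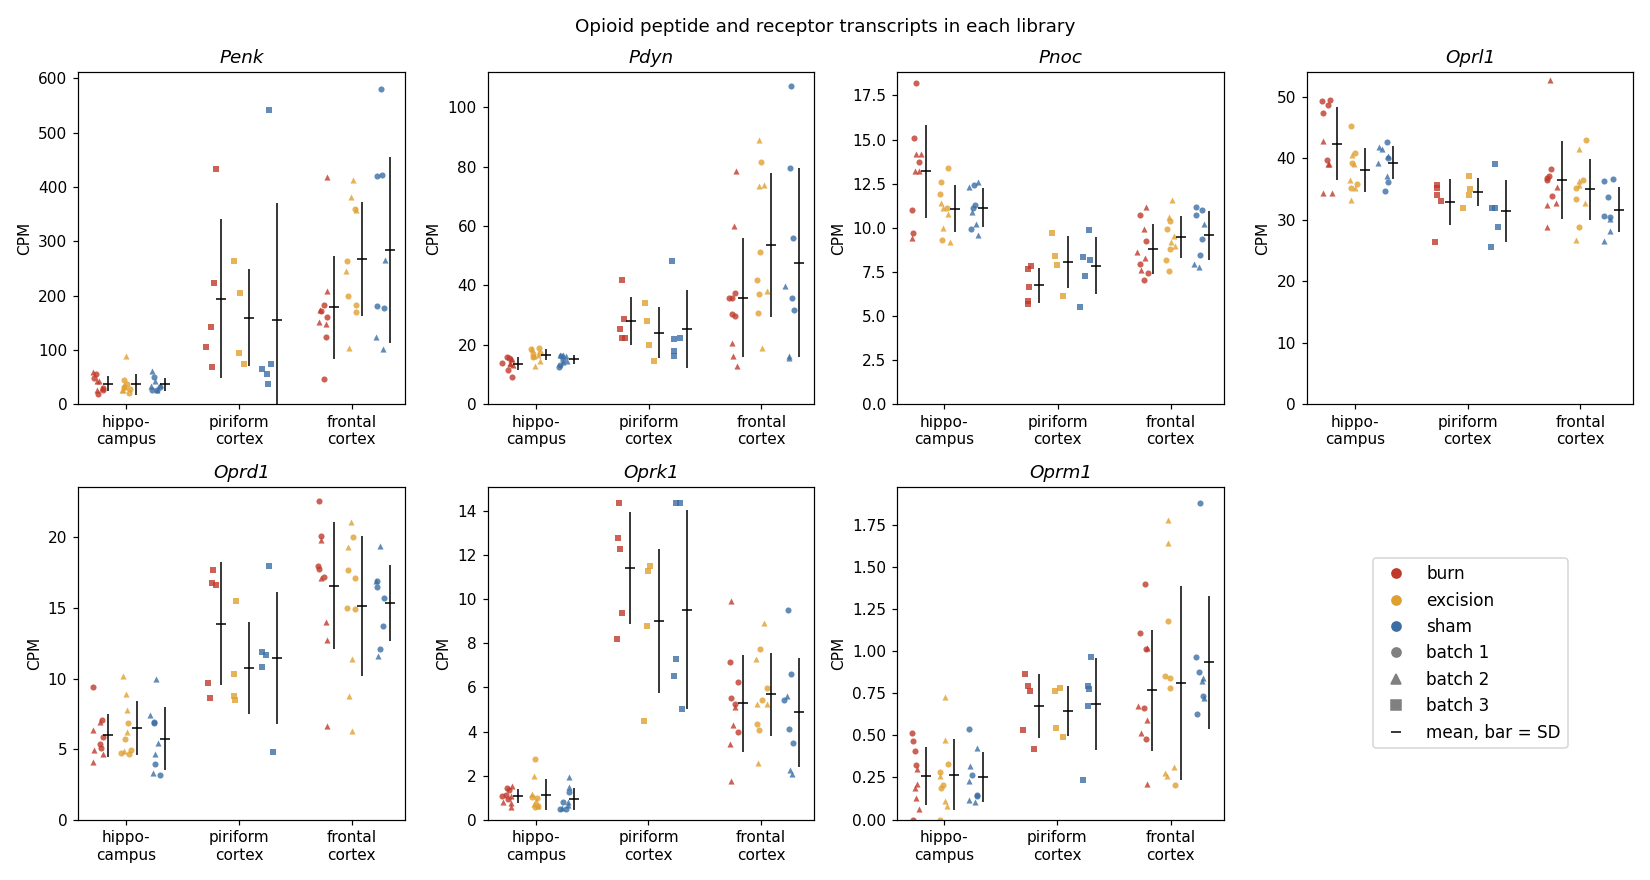
Level of each opioid gene (CPM, linear axes that start at 0) in all 71 libraries by region, with burn, excision and sham from left to right in each region. Points are libraries, their shapes give the batch, and bars give the mean and SD. In each treatment the hippocampus mean lies below the frontal cortex mean for Penk, Pdyn, Oprd1, Oprk1 and Oprm1. Single libraries of these regions overlap over all treatments. Penk reaches 434 CPM in a burn and 541 CPM in a sham library of piriform cortex.

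Piriform cortex lay between or beyond the other regions, depending on the gene. Against sham hippocampus, 6 of the 7 genes differed, where 33.6% of all genes were called: Pnoc and Oprl1 were higher in hippocampus, and Penk, Oprm1, Oprd1 and Oprk1 were lower. The kappa receptor gene showed the largest difference of the 7. Oprk1 had 0.474 to 1.94 CPM in sham hippocampus, and 5.02, 14.4, 6.53, 14.4 and 7.29 CPM in sham piriform cortex. The groups were apart, and the fitted log2 ratio was -3.34 (SE 0.37, adjusted p = 1.13e-07 by edgeR), and it was -3.43 among burn and -3.13 among excision libraries. Pnoc had 9.58 to 12.6 CPM in sham hippocampus, and 9.9, 7.26, 8.37, 8.19 and 5.54 CPM in sham piriform cortex, which is 0.49 on the log2 scale (SE 0.12, adjusted p = 0.0029). Oprd1 was lower in sham hippocampus, with a 95% interval of -1.49 to -0.50 on the log2 scale (adjusted p = 0.003), and so was Oprm1, at -1.40 (SE 0.37, adjusted p = 0.00474). With burn libraries all 7 genes were called in this comparison, where 49.6% of genes were, and with excision libraries 4 were, where 32% of genes were. Oprm1 and Oprl1 were not called with excision libraries, at -1.19 (adjusted p = 0.0928) and 0.14 (adjusted p = 0.311). With treatments taken from titles Oprl1 was not called either, at 0.32 (adjusted p = 0.0782).

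In sham piriform cortex 1 library held far more Penk and Pdyn than the other 4. Penk had 56.3, 65.1, 541, 73.7 and 36.8 CPM there, and Pdyn had 22.0, 16.2, 48.1, 18.0 and 22.3 CPM. The high library in both, replicate 3, also had the highest striatal marker sum of all 71 libraries, 3530 CPM, against 621 to 719 CPM in the other sham piriform libraries. With it, Penk was lower in hippocampus than in piriform cortex by a log2 ratio of -2.06 (SE 0.49, adjusted p = 0.0018), and without it by -0.67 (SE 0.34, adjusted p = 0.147). Pdyn was not called with it, at -0.75 (SE 0.34, adjusted p = 0.0974), nor without it, at -0.40 (SE 0.34, adjusted p = 0.397). The 3 sham regions shared 1 fit, and without frontal cortex sham replicate 5, 6 or 8 the Pdyn difference was called, at -0.76, -0.78 and -0.78 (adjusted p = 0.0455, 0.0452 and 0.0474). The shares of all genes called in those fits are not given here. Without the library with raised hippocampal markers, sham replicate 1, the Oprk1 difference was -3.52 (SE 0.38, adjusted p = 7.08e-08). Oprl1, called with that library at 0.32 (SE 0.09, adjusted p = 0.01), was at 0.23 (SE 0.09, adjusted p = 0.0528) without it.

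Sham piriform cortex against sham frontal cortex gave no called opioid gene by edgeR, where 11% of genes were called, and DESeq2 likewise called 0. An unadjusted p under 0.05 came in 3 of the 7 and in 25.1% of all genes. Oprk1 was at a log2 ratio of 0.96 (SE 0.35, adjusted p = 0.0822), Pdyn at -0.92 (SE 0.36, adjusted p = 0.106) and Pnoc at -0.29 (SE 0.12, adjusted p = 0.149). Leaving out single libraries changed these calls, in fits whose shares of all genes called are not given here. Without sham piriform replicate 3, Penk was called at -2.28 (SE 0.40, adjusted p = 0.000655) and Pdyn at -1.27 (SE 0.36, adjusted p = 0.024), against -0.88 (SE 0.53, adjusted p = 0.309) for Penk with it. Without sham piriform replicate 1, Oprk1 was called at 1.13 (SE 0.36, adjusted p = 0.0472), and without sham frontal cortex replicate 5 at 1.19 (SE 0.34, adjusted p = 0.0275). Without sham frontal cortex replicate 6, Pdyn was called at -1.03 (SE 0.32, adjusted p = 0.0429). With burn libraries Oprk1 was the 1 gene called, at 1.12 (SE 0.24, adjusted p = 0.00234), where 18.3% of genes were called. With excision libraries Pdyn was the 1 gene called, at -1.14 (SE 0.29, adjusted p = 0.0234), where 4.11% were. Burn libraries had Oprk1 at 8.22, 12.3, 14.4, 9.36 and 12.8 CPM in piriform cortex, and at 1.77 to 9.93 CPM, median 5.19, in frontal cortex.

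**Figure D3:**
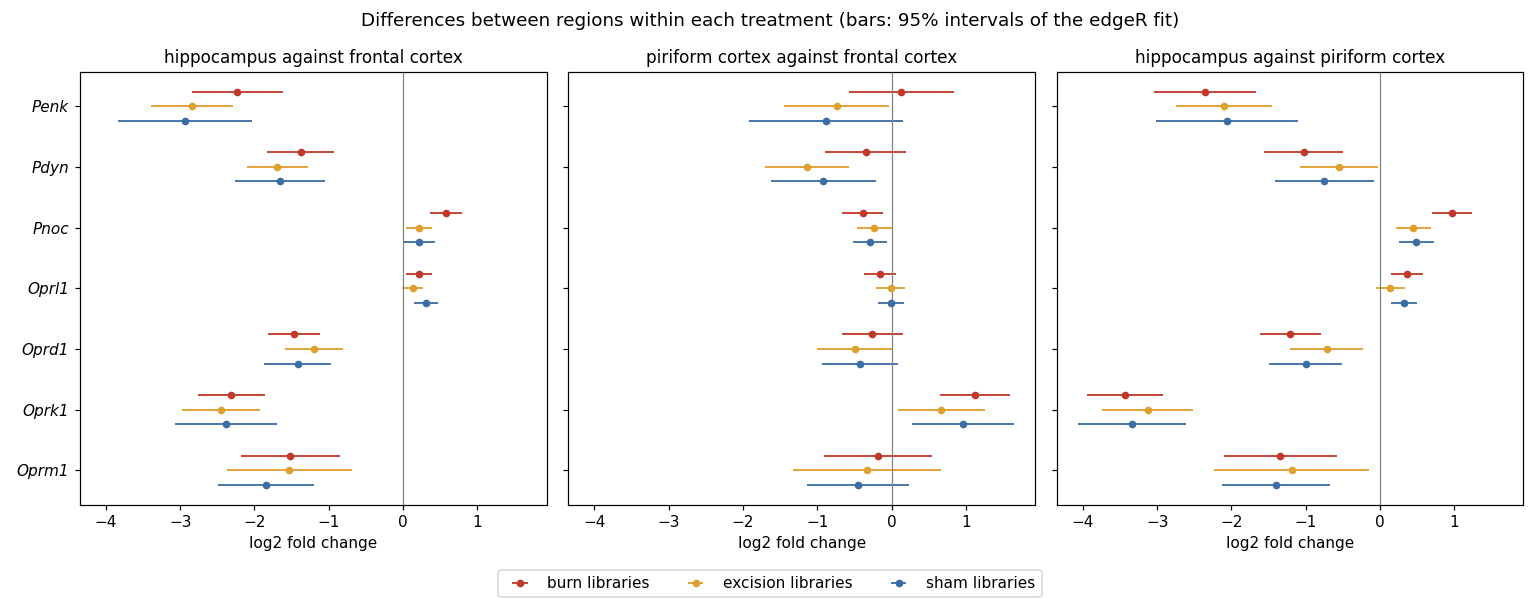
Log2 fold changes of the 7 genes between regions, fitted in burn, excision and sham libraries separately; points are edgeR estimates and bars 95% intervals. In the hippocampus panels Oprk1, Oprd1, Oprm1, Pdyn and Penk lie left of 0 in each treatment, and Oprk1 lies right of 0 in piriform against frontal cortex.

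Within each region, injured and sham animals were compared, which is what the groups of the study were laid out for. None of the 7 opioid genes was called by edgeR in any of the 9 comparisons, while 1 had an unadjusted p under 0.05 in hippocampus burn against sham (Pnoc), where 17.7% of all genes did, 3 in hippocampus burn against excision, where 14.3% did, and 2 in frontal cortex burn against sham, where 13% did. DESeq2 called 1, Pdyn in hippocampus burn against excision, and 0 in the other 8. Over all genes DESeq2 called several times as many there as edgeR did, as counted in the closing section. Few genes were called at all by edgeR, whose shares follow. In hippocampus the share of genes called was 1.03% for burn against sham, 0% when excision was set against sham, and 0.209% for burn against excision. In frontal cortex it was 0.28% of genes for burn against sham, 0% when excision was set against sham, and 0.209% for burn against excision. In piriform cortex it was 0% in all 3 comparisons, with 896 of 21004 genes at an unadjusted p under 0.05 for burn against sham, 1102 when excision was set against sham, and 1658 for burn against excision, and with 1, 2 and 63 genes called by DESeq2. Excision against sham gave 727 of 19574 genes at an unadjusted p under 0.05 in hippocampus and 1007 of 21077 in frontal cortex, and 0 calls by DESeq2 in both. Against so low a background, 0 of 7 says nothing particular about the opioid genes.

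The log2 fold changes of burn over sham ran from -0.16 to 0.22 over the 7 genes in hippocampus, from -0.23 to 0.35 in piriform cortex and from -0.73 to 0.21 in frontal cortex. Those of excision over sham ran from -0.05 to 0.19, from -0.09 to 0.13 and from -0.16 to 0.27. The width of the intervals differed more than the estimates. For burn over sham in hippocampus, the 95% interval was -0.05 to 0.20 for Oprl1 and -0.32 to 0.01 for Pdyn, but -0.42 to 0.46 for Penk and -0.86 to 0.78 for Oprm1. In piriform cortex, with 5 burn and 5 sham libraries, the interval of Penk ran from -0.96 to 1.65 and was the widest of the 7.

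In hippocampus the peptide genes Pdyn and Pnoc came nearest to the threshold. Pdyn had 9.25 to 16.0 CPM, median 13.8, in burn libraries, 13.0 to 19.1 CPM, median 16.7, in excision libraries, and 12.7 to 16.7 CPM, median 15.0, in sham libraries. The burn and excision groups overlapped between 13.0 and 16.0 CPM, and the log2 fold change of burn over excision was -0.29 (SE 0.08, unadjusted p = 0.00134, adjusted p = 0.105 by edgeR). DESeq2 called it at the same size (adjusted p = 0.0389), and without burn replicate 8 edgeR also did (-0.31, adjusted p = 0.0458), in a fit whose share of all genes called is not given here. The 12 dentate granule cell markers went with it in sign, with a median log2 fold change of -0.29 for burn over excision and -0.23 for burn over sham, and 0 of 12 called by edgeR. They summed to 374 to 596 CPM, median 489, in burn libraries, 341 to 678 CPM, median 581, in excision libraries and 419 to 649 CPM, median 546, in sham libraries, and their part in the Pdyn value was not tested. The Pdyn value was -0.43 in batch 1 alone (adjusted p = 0.0893) and -0.17 in batch 2 alone (adjusted p = 0.678). Pnoc had 9.45 to 18.2 CPM, median 13.4, in burn libraries, 9.21 to 13.4 CPM, median 11.1, in excision libraries, and 9.58 to 12.6 CPM, median 11.1, in sham libraries. A total of 7 burn libraries lay above the highest sham library, and the others lay within or under the sham range. Its log2 fold change was 0.22 for burn over sham (SE 0.09, adjusted p = 0.217) and 0.24 for burn over excision (SE 0.09, adjusted p = 0.237).

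Oprl1, the receptor of the peptide made from Pnoc, had 34.3 to 49.4 CPM, median 41.2, in hippocampus burn libraries, 33.3 to 45.2 CPM, median 37.7, in excision libraries and 34.7 to 42.6 CPM, median 40.0, in sham libraries. Values of opposite sign came from the 2 batches. In batch 1 the burn libraries had 49.4, 39.7, 48.6, 49.3 and 47.3 CPM, and the sham libraries 40.0, 36.2, 42.6 and 34.7 CPM, so that 4 of 5 burn libraries lay above all sham libraries. In batch 2 the burn libraries had 39.1, 39.0, 34.3, 34.4 and 42.8 CPM, and the sham libraries 37.2, 40.3, 39.2, 41.9 and 41.5 CPM, which overlapped. The burn effect in batch 2 minus that in batch 1 was -0.34 on the log2 scale (SE 0.11, unadjusted p = 0.00488, adjusted p = 0.136), in a test that called 0.046% of genes and 0 of the 7 by edgeR, 1 of which had an unadjusted p under 0.05, and DESeq2 called 0 of the 7. Choroid plexus markers in the same region had higher medians in burn libraries: their 10 genes summed to 44.2 to 6930 CPM, median 1710, in burn libraries, 27.1 to 3120 CPM, median 57.0, in excision libraries and 46.1 to 5280 CPM, median 172, in sham libraries. Their median log2 fold change was 0.88 for burn over sham and 1.02 for burn over excision, with 0 of 10 called by edgeR. All 10 had counts in each group, and their part in the hippocampal values of Pdyn, Pnoc and Oprl1 was not tested.

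In frontal cortex, Penk had 46.1 to 419 CPM, median 166, in burn libraries, 103 to 413 CPM, median 254, in excision libraries and 102 to 580 CPM, median 223, in sham libraries. The 3 groups overlapped over most of their range, and the log2 fold change of burn over sham was -0.73 (SE 0.35, unadjusted p = 0.0482, adjusted p = 0.381 by edgeR). The 2 batches gave values of opposite sign. In batch 1 the burn libraries had 171, 160, 183, 46.1 and 124 CPM of Penk and the sham libraries 423, 177, 421, 181 and 580 CPM. These groups met only between 177 and 183 CPM, and the fitted log2 ratio was -1.39 (SE 0.37, adjusted p = 0.0388) in a fit that called 6.5% of genes. In batch 2 the burn libraries had 152, 209, 147, 419 and 174 CPM and the sham libraries 102, 265 and 124 CPM, and the fitted log2 ratio was 0.43 (SE 0.44, adjusted p = 0.845). The burn effect in batch 2 minus that in batch 1 was 1.80 (SE 0.63, unadjusted p = 0.00794, adjusted p = 0.169), in a test that called 0% of 21077 genes by edgeR, 4088 of which had an unadjusted p under 0.05 and 282 of which DESeq2 called. For Pdyn the value was -0.88 in batch 1 (adjusted p = 0.0844) and 0.66 in batch 2 (adjusted p = 0.835), a difference of 1.53 (SE 0.70, adjusted p = 0.236). Neither gene's batch difference passed the threshold.

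The 2 batch 2 burn libraries with titles that name sham, replicates 7 and 8, had 209 and 147 CPM of Penk. Without the libraries of disagreeing titles the burn over sham value of Penk in frontal cortex was -0.70 (SE 0.38, adjusted p = 0.454), and with treatments taken from titles it was -0.40 (SE 0.35, adjusted p = 0.734). With titles, the batch difference of Penk was 2.12 (SE 0.58, adjusted p = 0.0437). The share of all genes called in that fit is not given here, so this call is not read as particular to Penk. Oprl1 in frontal cortex had 28.9 to 52.7 CPM, median 35.9, in burn libraries, and 26.6 to 36.7 CPM, median 30.6, in sham libraries, and the fitted log2 ratio was 0.21 (SE 0.10, adjusted p = 0.348). Its highest library, at 52.7 CPM, is burn replicate 7, one of those titled sham.

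The difference between regions in the burn effect was tested directly for hippocampus against frontal cortex. None of the 7 genes was called by edgeR or by DESeq2 and 1 had an unadjusted p under 0.05, and of all 21610 genes 0% were called by edgeR, with 1847 at an unadjusted p under 0.05 and 0 called by DESeq2. Pnoc had the smallest p of the 7, with a burn effect larger in hippocampus by 0.33 on the log2 scale (SE 0.14, unadjusted p = 0.0223, adjusted p = 0.496). In frontal cortex itself Pnoc had 7.06 to 11.2 CPM, median 8.45, in burn libraries and 7.8 to 11.2 CPM, median 9.77, in sham libraries.

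**Figure D4:**
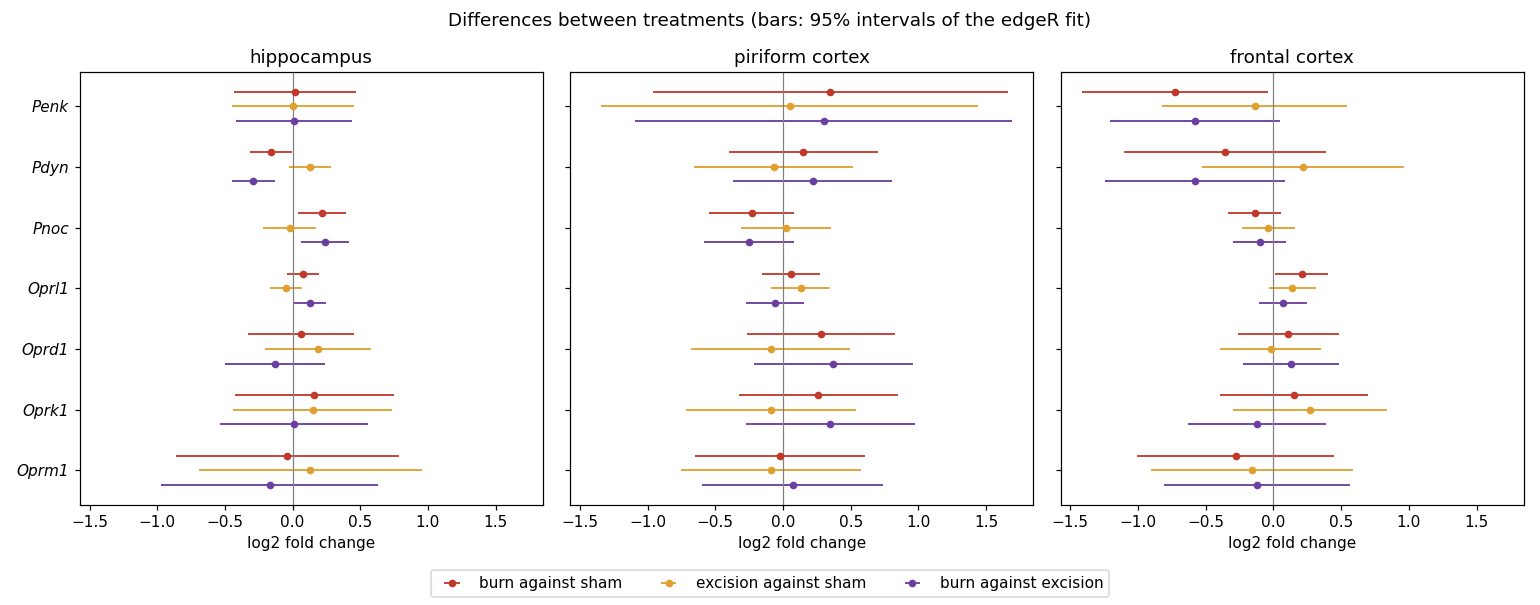
Log2 fold changes of the 7 opioid genes for the 3 pairs of treatments in each region (burn over sham, excision over sham, burn over excision); points are edgeR estimates and bars 95% intervals. Most bars cross 0, and those of Penk are wider in both cortices than in hippocampus.

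Striatal transcripts varied several-fold between cortical libraries of the same treatment, and in frontal cortex Penk, Pdyn and Oprk1 varied with them. The 17 markers of striatal projection neurons, among them Drd1, Drd2 and Adora2a, each had a count in at least 1 library of every group. In the hippocampus fit 15 of the 17 passed the filter on low counts. Their summed level in hippocampus was 505 to 608 CPM in burn, 489 to 616 CPM in excision and 506 to 611 CPM in sham libraries. In piriform cortex it was 922 to 2820 CPM in burn, 652 to 1820 CPM in excision and 621 to 3530 CPM in sham libraries. In frontal cortex it was 450 to 2420 CPM in burn, 501 to 2060 CPM in excision and 494 to 3140 CPM in sham libraries. Drd2, the receptor of the enkephalin-rich striatal neurons, ran from 1.15 to 84.4 CPM among sham frontal cortex libraries. In hippocampus Drd1 reached at most 8.36 CPM, Drd2 6.75 CPM and Adora2a 6.75 CPM, so the sum there came mostly from the other listed genes. In bulk tissue, fewer cells of a type and less RNA per cell cannot be told apart.

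Each gene was set against this sum on a log2 scale after centring within batch and treatment, 21 relations in all, with permutation p-values (two-sided, 100000 resamples, smallest possible 1e-05) adjusted over the 21. The centred values were permuted over all libraries of a region, not within batch and treatment. The centring was thus not allowed for, and these p-values may be too small. In frontal cortex (n = 28) Penk gave Pearson's r = 0.93 and Spearman's rho = 0.93, with adjusted p = 5.25e-05 for r and 7e-05 for rho by permutation. Without the 2 libraries farthest from the median sum its r was 0.93, and it was 0.93 in batch 1 and 0.95 in batch 2. Pdyn gave r = 0.89 and rho = 0.88 there, r = 0.85 without those 2 libraries, and 0.82 and 0.93 in batches 1 and 2. Oprk1 gave r = 0.83 and rho = 0.83, r = 0.82 without them, and 0.73 and 0.88 in batches 1 and 2. These relations held in both batches. For Pdyn and Oprk1 the adjusted permutation p was 5.25e-05 for r and 7e-05 for rho, the same as for Penk.

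In piriform cortex (n = 14, batch 3 only) Penk gave r = 0.97 (adjusted permutation p = 5.25e-05) and rho = 0.89 (0.000367), with r = 0.91 without the 2 farthest libraries. Pdyn gave r = 0.92 (adjusted permutation p = 0.000126) and rho = 0.67 (0.0282), with r = 0.80 without them. Oprk1 did not pass there, at r = -0.27 and rho = -0.08 (adjusted permutation p = 0.502 and 0.848). Among the 4 sham piriform libraries with sums of 621 to 719 CPM, Oprk1 was 14.4 CPM in replicates 2 and 4, but 7.29 CPM in replicate 5 and 5.02 CPM in replicate 1, which had the lowest sums. Replicate 1 is the library with raised hippocampal markers. Sham replicate 3, with the highest sum, 3530 CPM, had 6.53 CPM of Oprk1. In hippocampus (n = 29) the sum varied little and came mostly from genes other than Drd1, Drd2 and Adora2a. There Penk gave r = 0.49 and rho = 0.56 (adjusted permutation p = 0.0223 and 0.00738), with r = 0.54 without the 2 farthest libraries, 0.45 in batch 1 and 0.53 in batch 2. Pnoc gave r = 0.58 and rho = 0.59 (adjusted permutation p = 0.00287 and 0.00378), r = 0.56 without them, 0.74 in batch 1 and 0.41 in batch 2. By r, 7 of the 21 relations were under an adjusted p of 0.05. Oprm1 in piriform cortex passed by rho alone, at rho = 0.68 (adjusted permutation p = 0.0279) and r = 0.59 (0.073), with r = 0.47 without the 2 farthest.

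**Figure D5:**
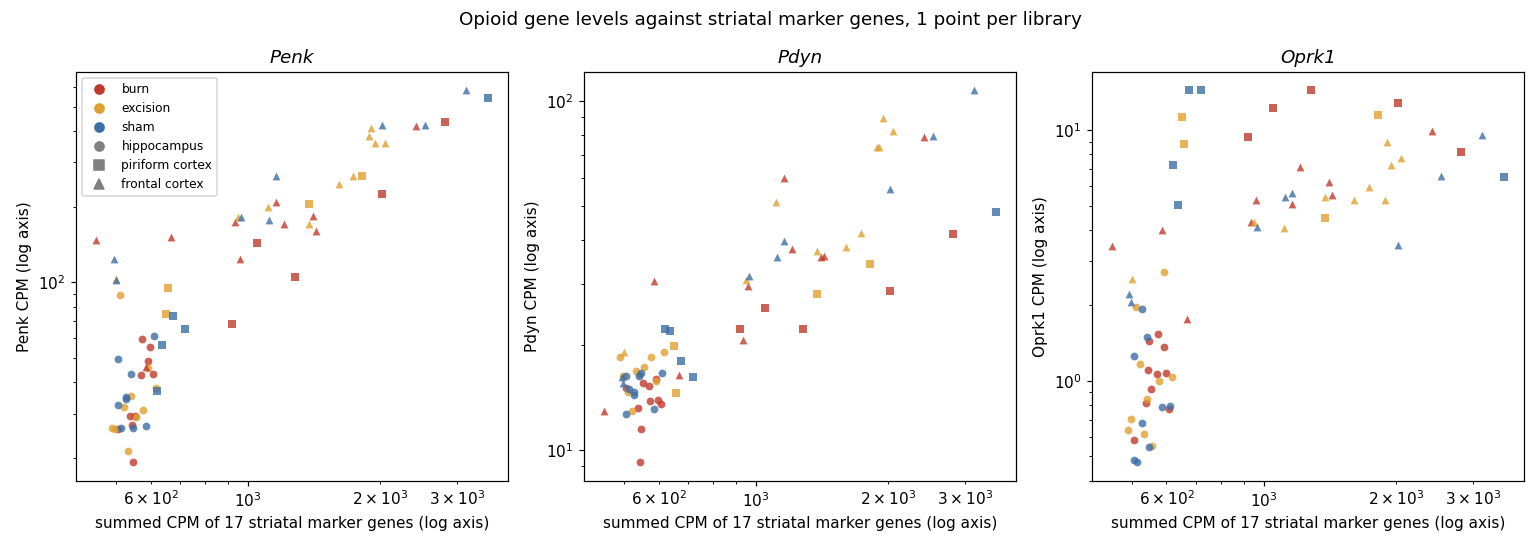
Levels of Penk, Pdyn and Oprk1 (CPM) against the summed CPM of 17 striatal marker genes, both on log axes, 1 point per library, with colours for burn, excision and sham and shapes for the region. Hippocampus points cluster between 489 and 616 CPM, while cortical points spread from 450 to 3530 CPM with Penk and Pdyn higher at higher sums. Oprk1 in piriform cortex runs from 4.46 to 14.4 CPM and does not follow the sum (r = -0.27).

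The batch 1 difference of Penk in frontal cortex went with this sum. In batch 1 the striatal sum was 586 to 1430 CPM in burn libraries and 963 to 3140 CPM in sham libraries, and the burn library with the lowest Penk, 46.1 CPM, also had the lowest sum. In batch 2 the sum was 450 to 2420 CPM in burn and 494 to 1160 CPM in sham libraries. The whole list was tested with both batches in 1 fit, in which Penk itself was not called, and not in batch 1 alone. In that fit 0 of 17 striatal genes were called in frontal cortex burn against sham by edgeR, 0 had an unadjusted p under 0.05 and DESeq2 called 0, with a median log2 fold change of -0.37 against -0.02 over all genes. Between regions, 16 of the 17 were called lower in sham hippocampus than in sham frontal cortex, where 3866 of 21149 genes were. Their median log2 fold change was -2.28, against 0.00 over all genes. Set against sham piriform cortex, 15 of the 17 were called lower in sham hippocampus, where 3287 of 21149 genes were. The median there was -1.94, against -0.00 over all genes. The part of striatal transcripts in the values of Penk, Pdyn and Oprk1 was not tested.

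Genes most like each opioid gene were ranked by Pearson's r of log2 CPM after the same centring, over all genes with a mean of at least 1 CPM in the region. In frontal cortex (n = 28) the 3 most like Penk were Gpr6, Rem2 and Pde1b, each at r = 0.95, and those most like Pdyn were Slc10a4, Ecel1 and Tac1, each at 0.95. Gpr6 and Tac1 are on the striatal list. For Oprk1 they were Pde10a (0.92), Isl1 (0.91) and Slc5a7 (0.90), of which the first 2 are on that list, and Slc5a7 is the choline transporter of cholinergic neurons. In piriform cortex (n = 14) Penk was most like Pde1b (0.98), Tac1 (0.98) and Syndig1l (0.97), of which the last 2 are on the list, while Oprk1 was most like Appl1, Klhl14 and Zfp248 (each 0.91). In hippocampus (n = 29) Penk was most like Cartpt (0.86), a neuropeptide gene, and then Cmbl (0.83) and Angptl4 (0.81), none of them on the striatal list. The receptor genes Oprd1 and Oprl1 were most like other genes: Oprd1 was like Faxc (0.95) in hippocampus, Arhgef12 (0.97) in piriform cortex and Tubgcp4 (0.95) in frontal cortex, and Oprl1 was like Psmd5 (0.89), Zfp383 (0.95) and Kpna2 (0.94). Pnoc in hippocampus was most like Gm7027 (0.84), and Oprm1 was most like Gjd2 (0.80) there. Points of these correlations share libraries and depth, and they are given as a description.

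Among the opioid genes themselves, Penk and Pdyn varied together in piriform cortex (r = 0.87, n = 14) and frontal cortex (r = 0.81, n = 28) but had r = 0.07 in hippocampus (n = 29). Oprk1 varied with Pdyn in frontal cortex (r = 0.82) and with Penk in frontal cortex (r = 0.77) and hippocampus (r = 0.57). Pnoc and Oprd1 varied in opposite directions in each region, at r = -0.60 in hippocampus, -0.88 in piriform cortex and -0.58 in frontal cortex. Oprm1 and Oprd1, the receptors of the enkephalins, had r = 0.56, 0.44 and 0.66 in the same regions. A peptide and its own main receptor did not vary together in all regions: Pdyn and Oprk1 had r = -0.34 in hippocampus and -0.44 in piriform cortex, and Pnoc and Oprl1 had r = 0.18, -0.73 and 0.32 in hippocampus, piriform and frontal cortex.

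Other genes of the opioid pathway were read from 4 lists. In all 9 treatment comparisons edgeR called 0 of 13 genes of opioid peptide processing, 0 of 11 of opioid peptide breakdown, 0 of 31 of opioid receptor signalling and 0 of 8 receptor trafficking partners. Of the tests these lists gave over the 9 comparisons, an unadjusted p under 0.05 came in 15 of 117 for processing, 10 of 99 for breakdown, 26 of 279 for signalling and 9 of 72 for trafficking, beside 3.71% to 17.7% of all genes in a single comparison. DESeq2 called 2, 4, 3 and 0 of the same tests. In the burn comparisons it called more of all genes than edgeR did, as counted above and in the closing section. These calls are therefore not read as particular to the lists. In hippocampus burn against sham they were Pam and the peptidase gene Nln. In frontal cortex burn against sham they were Pcsk2, Nln, Prep, Gnai2 and Rgs7. Nln was also called in hippocampus burn against excision, which uses the same burn libraries, and Adcy8 in piriform cortex burn against excision. In sham hippocampus against sham frontal cortex, where 37.8% of all genes were called, 2 of 13 processing genes were higher and 5 lower, with a median log2 fold change of -0.14 against 0.00 over all genes. The granin Scg2 was lower by a log2 ratio of -1.25 (SE 0.10, adjusted p = 2.79e-10), the prohormone convertase gene Pcsk1 by -1.10 (SE 0.20, adjusted p = 0.000107) and the amidating enzyme gene Pam by -0.40. Chgb, another granin, was higher at 0.67 (SE 0.08, adjusted p = 1.3e-07), as was the carboxypeptidase gene Cpe at 0.35. Of 11 breakdown genes, 1 was higher, Ace at 1.30 (SE 0.42, adjusted p = 0.0171), and 2 were lower, Ece1 at -0.75 and Mme, which encodes neprilysin, a peptidase of enkephalins, at -0.82 (SE 0.32, adjusted p = 0.048).

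Of 31 signalling genes in that comparison, 4 were higher and 12 lower, with a median of -0.16. The lower ones with the smallest p were the beta-arrestin gene Arrb1 at -0.74 (SE 0.07, adjusted p = 7.58e-09), the receptor kinase gene Grk5 at -1.08, and Rgs4 and Rgs20, which encode regulators of G protein signalling, at -1.20 and -1.07. Rgs19 was higher at 0.45 (SE 0.07, adjusted p = 5.9e-06). Rgs9 and Adcy5 of this list are also on the striatal list. Of 8 trafficking partners, 1 was higher, Gprasp2 at 0.25, and 3 were lower, Wls at -0.95, Gpr83 at -0.58 and Rtp4 at -0.50. In sham piriform against sham frontal cortex, where 11% of all genes were called, 1 processing gene was higher and 3 were lower, 0 breakdown genes were higher and 1 was lower, 5 signalling genes were higher and 4 lower, and 0 trafficking partners were higher and 1 was lower. Wls was again the trafficking partner lower, at -0.75 (SE 0.16, adjusted p = 0.00311), and Kcnj9, a subunit of the potassium channels that these receptors open, was higher at 0.70 (SE 0.12, adjusted p = 0.000478). Sham hippocampus against sham piriform cortex, where 33.6% were called, gave 1 processing gene higher and 2 lower, 1 breakdown gene higher and 1 lower, 2 signalling genes higher and 15 lower, and 1 trafficking partner higher and 1 lower.

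Oprm1 had the fewest counts of the 7 genes. It was counted at 0 in 2 of 71 libraries, hippocampus burn replicate 5 of 7.13 M counts and hippocampus excision replicate 3 of 6.65 M counts, and the other 6 genes had counts in all libraries. A count of 0 allows up to 0.421 CPM in the burn library and up to 0.451 CPM in the excision library (3 counts of the total, counting error only), which is above the median of Oprm1 in each hippocampus group.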

How the data were processed

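Raw gene counts of 71 libraries, as deposited by the authors, were the starting point. Per the submitters' processing notes, FastQC 0.11.3, fastp, STAR and DESeq2 1.24.0 were used with GRCm38; not given in the sources used here: the counting tool, its annotation and strandedness. Symbols and exon lengths came from GENCODE mouse M21, which matched 52083 identifiers and left 3333 unmatched, with 0.847% of counts. The 7 genes, the gene lists and the tests were chosen with earlier results of these data known.

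Treatments were compared within a region by edgeR 4.0.16 (R 4.3.3, limma 3.58.1) with TMM scaling, its default filter on low counts, a batch term where a region had 2 batches, and the quasi-likelihood test, adjusted over all genes tested. Sham libraries of the 3 regions shared 1 fit with no batch term, and burn effects were compared between batches and regions by interaction terms. All 7 genes passed the filter in these fits. DESeq2 1.42.0 was an alternative, beside other size factors, no filter, batches apart, titles for treatments, a replicate block and each library left out. The procedure was tested on simulated data. Correlations used Python 3.11.15, numpy 2.4.6, scipy 1.17.1 and pandas 2.3.3 on log2 of CPM plus a pseudocount of 0.5, with 100000 permutations. The genes named are the 7, the 3 genes most like each by r, and up to 5 called genes of each list by smallest p. Nln and the other list genes called by DESeq2 in the treatment comparisons were named after their values were seen. Of 270 pairs of libraries within a group 0 were identical, and the lowest chi-square per degree of freedom was 4.36. This check can find only repeated sequencing of 1 library, not repeated libraries of 1 animal. Each library was counted as 1 sample. The labels do not state that libraries of a group are separate animals. One further list of pathway genes is not reported here.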

Additional observations from a re-analysis of the deposited data

Results flagged for a closer look

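Each of the 7 genes was examined in each of the 9 groups of libraries, and 7 of these 63 sets of values held a library far from the others by Dixon's criterion, which chance gives in about 1 of 20 sets. Piriform cortex sham replicate 3 is counted for both Penk and Pdyn. Penk stood at 88.7 CPM in hippocampus excision replicate 6, where the other 9 libraries had 21.2 to 45.5 CPM, and the striatal marker sum of that library, 510 CPM, lay inside the 489 to 616 CPM of its group. It stood at 419 CPM in frontal cortex burn replicate 9, where the others had 46.1 to 209 CPM, and that library also had the highest striatal marker sum of its group, 2420 CPM. In piriform cortex sham replicate 3 Penk stood at 541 CPM, against 36.8 to 73.7 CPM in the others, and Pdyn at 48.1 CPM, against 16.2 to 22.3 CPM, in the library with the highest striatal sum of all, 3530 CPM. Oprm1 stood at 1.88 CPM in frontal cortex sham replicate 5, where the others had 0.627 to 0.963 CPM. Oprl1 stood at 52.7 CPM in frontal cortex burn replicate 7, a library titled sham, where the others had 28.9 to 38.2 CPM. In piriform cortex burn replicate 1 Oprl1 was low, at 26.4 CPM, against 33.1 to 35.7 CPM in the others. The part of striatal transcripts in these values was not tested.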

How the results depend on the processing

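Counts of called opioid genes moved by over 1.5 times, or changed from 0, in few settings. In hippocampus burn against excision, DESeq2 called 1 and edgeR 0, and leaving out single libraries gave 0 to 1, the 1 without burn replicate 8. In frontal cortex burn against sham, batch 1 alone gave 1, Penk, which was reversed in batch 2 alone, at 0.43. The batch difference in frontal cortex gave 1, Penk, with treatments from titles, and the share of all genes called in that fit is not given here. Sham piriform against sham frontal cortex gave 1 with burn libraries, 1 with excision libraries, and 0 to 2 with single libraries left out. In each case the cause was not tested. Of the alternative counts computed for all comparisons, 490 stayed within 1.5 times and 10 did not. Most of them started from 0 called genes, and a 0 that stayed 0 is among the 490, so this count says little about stability. Sham hippocampus against frontal cortex kept 6 calls with each library left out and 5 to 6 otherwise, and against piriform cortex 5 to 7 and 4 to 7. The shares of all genes called with a library left out are not given here. Calls from such fits are therefore not read as particular to the opioid genes. Over all genes DESeq2 called more than edgeR: 670 against 202 in hippocampus burn against sham, 298 against 41 in burn against excision, and 346 against 59 and 179 against 44 in the same comparisons of frontal cortex.

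The title numbers did not pair the libraries: the deviations of same-numbered libraries correlated over 0.1 in 8 of 28 pairs in hippocampus, 2 of 11 in piriform cortex and 9 of 24 in frontal cortex. With the number as a replicate block, without the libraries whose labels disagree, 0 of the 7 genes were called in each of the 9 treatment comparisons. Pdyn in hippocampus burn against excision was then -0.29 (adjusted p = 0.161 by edgeR). With library number as the block, where 9 of 27 pairs correlated over 0.1, 6 genes were called between sham hippocampus and frontal cortex. The share of all genes called in that blocked fit is not given here.

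Oprm1 rests on the fewest counts of the 7 genes; how far depth and spread between libraries each set the precision was not tested. Region and batch cannot be told apart for piriform cortex. Oprm1 gave no value in hippocampus batch 1 alone, where it failed the filter.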
